A study of Mus musculus with 6 samples.

Results

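AII amacrine cells are small-field interneurons of the mammalian retina that carry rod signals into the cone pathways. Rod bipolar cells excite them at ribbon synapses through glutamate receptors. AII cells pass the signal to ON cone bipolar cells through gap junctions of connexin 36, the product of Gjd2, and inhibit OFF bipolar terminals and OFF ganglion cells by releasing glycine. Dopamine adjusts how strongly they are coupled. Nuclei were chosen from single-nucleus RNA counts by 2 genes known from these cells: Slc6a9, the glycine transporter GlyT1, with at least 1 UMI (a molecule counted by its identifier), and Dab1, an adaptor of the reelin pathway, with at least 3 UMIs. No UMI of Gad1 or Gad2, which make GABA, or of Slc17a8, the vesicular glutamate transporter VGLUT3, was allowed. At most 1 UMI in all was allowed over 9 genes of other retinal cells (Slc1a3, Rbpms, Slc17a6, Lhx1, Trpm1, Grm6, Grik1, Arr3 and Pde6c). Nuclei also had to show 300 genes or more and a mitochondrial share of UMIs of 5% or less, which 55230 did, and 570 of these passed the gate. They are called AII-like below. The levels of the genes of this gate chose the nuclei, so they are described and not tested between classes. In the fits of age they stayed among the genes tested, and nothing is read from them there.

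The nuclei came from whole retinas of wild-type C57BL/6J mice, 3 libraries at 18 months and 3 libraries at 3 months of age, prepared with 10x Genomics 3' kits of version 3.1. No treatment, transgene or sorting step is named. The labels do not say whether a library is a single animal or a pool, so p-values speak only of how much libraries vary, which can be technical in part. At 18 months, replicates 1 to 3 held 148, 152 and 87 AII-like nuclei, and at 3 months, replicates 1 to 3 held 119, 33 and 31.

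2 of the genes described below, Gjd2 and Drd2, were lower in the AII-like nuclei that held a UMI of Ebf3, a transcription factor of the early B-cell factor family, than in those that held none, while Prox1, a homeobox transcription factor used as an AII marker, was at a like level in both. The promoters of Gjd2, Drd2, Ebf3 and Prox1 are printed for that reason. Other genes also differed: Nfia, Tfap2b, Csmd3 and Nrg1 were lower and Ror1, Esr1 and Thsd4 higher in nuclei with Ebf3. Their promoters are not shown. The genes printed were chosen after their values were seen, and regulation by Ebf3 was not tested. The sequences are RefSeq's on GRCm38.p6, 250 bases before and 50 bases after the annotated start, 5′ to 3′ on the gene's strand. Capitals mark each match of the early B-cell factor core CCCNNGGG, which reads the same on both strands.
Gjd2, chr2:114013570-114013869, minus strand: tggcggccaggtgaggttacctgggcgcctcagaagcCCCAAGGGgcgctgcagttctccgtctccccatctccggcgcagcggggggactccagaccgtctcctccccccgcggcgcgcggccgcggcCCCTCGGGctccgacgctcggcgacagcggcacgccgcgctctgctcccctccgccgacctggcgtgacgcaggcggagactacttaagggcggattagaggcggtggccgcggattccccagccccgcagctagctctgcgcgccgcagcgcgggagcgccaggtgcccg
Drd2, chr9:49340153-49340452, plus strand: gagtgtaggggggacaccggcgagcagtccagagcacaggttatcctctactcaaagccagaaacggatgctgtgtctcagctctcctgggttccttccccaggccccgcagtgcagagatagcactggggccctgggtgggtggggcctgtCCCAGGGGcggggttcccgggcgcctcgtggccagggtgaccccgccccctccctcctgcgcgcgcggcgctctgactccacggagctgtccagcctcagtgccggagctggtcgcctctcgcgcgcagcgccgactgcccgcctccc
Ebf3, chr7:137314396-137314695, minus strand: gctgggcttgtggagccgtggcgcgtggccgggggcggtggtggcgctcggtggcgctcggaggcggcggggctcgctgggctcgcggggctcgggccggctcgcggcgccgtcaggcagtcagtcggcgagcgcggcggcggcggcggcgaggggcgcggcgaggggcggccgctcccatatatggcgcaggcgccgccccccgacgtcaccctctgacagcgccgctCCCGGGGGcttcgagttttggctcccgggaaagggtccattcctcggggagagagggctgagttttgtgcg
Prox1, the first of 2 annotated starts, chr1:190170778-190171077, minus strand: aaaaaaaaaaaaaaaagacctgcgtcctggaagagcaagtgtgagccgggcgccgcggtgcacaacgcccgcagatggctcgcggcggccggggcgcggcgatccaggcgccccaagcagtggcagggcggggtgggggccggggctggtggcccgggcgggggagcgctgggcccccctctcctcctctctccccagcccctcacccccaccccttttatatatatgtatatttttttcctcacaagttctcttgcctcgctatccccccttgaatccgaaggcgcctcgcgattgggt
The window of Gjd2 held 2 matches, those of Drd2 and Ebf3 held 1 each, and that of Prox1 held 0. Of 32851 promoters of the same length, 4491 (13.7%) held at least 1 match. A match is a string of letters and not a measured binding site.

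The 6 libraries held 15905689 to 29340705 UMIs, and the AII-like nuclei in them 443364, 395607 and 151692 UMIs at 18 months and 239531, 99067 and 81208 UMIs at 3 months. Their median depth was 2403, 2425.5 and 1492 UMIs per nucleus at 18 months, against 1860.0, 2682 and 2299 at 3 months, so replicate 3 at 18 months was the shallowest. Replicate 1 of each age was counted with Cell Ranger 7.1.0 and the others with 7.2.0. Of 62426 distinct barcode strings, 467 occurred in 2 or more libraries. RNA of rods, the main cell of the mouse retina, was present in the AII-like nuclei of every library. The summed level of 14 rod markers in AII-like nuclei was 7463, 8508 and 10027 CPM (UMIs of a gene scaled to the summed UMIs of the class in that library) at 18 months, against 13218, 16766 and 16390.0 CPM at 3 months. The ages did not overlap, and 0 of the 14 markers were at 0. Of listed genes of other cell types outside the gate, Isl2, Gja10, Fezf1, Tmem119, Cdh5, Pdgfrb, Kcnj8, Rpe65, Best1 and Lrat were at 0 in AII-like nuclei of all libraries. The other genes of those lists had UMIs. Summed pigment epithelium markers averaged 145 CPM at 18 months and 74.0 CPM at 3 months, against 148 and 131 CPM in all other nuclei. Those of microglia averaged 88.9 and 98.9 CPM, against 115 and 90.4 CPM. Those of ganglion cells averaged 368 and 337 CPM, against 943 and 1081 CPM.

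The 2 genes that chose the nuclei stood unevenly above their limits. Dab1 had 3 to 53 UMIs per nucleus with a median of 8, and Slc6a9 had 1 to 6 with a median of 1, so most nuclei met the Slc6a9 limit by a single molecule. Just inside the Dab1 limit, 87 nuclei with 3 UMIs had 60.9 CPM of Gjd2 and 177 CPM of Prox1, against 28.2 and 133 CPM in the 136 nuclei with 2 UMIs just outside it. These values rest on 10 and 7 UMIs of Gjd2 and on 29 and 33 UMIs of Prox1. Nfia, described below, was close on both sides of the Dab1 limit, at 305 CPM inside and 290 CPM outside. The 332 nuclei with 1 UMI of Slc6a9 had 77.7 CPM of Gjd2 and 403 CPM of Prox1, against 51.3 and 256 CPM in the 1158 nuclei that met every other limit with 0 UMIs of Slc6a9. Nfia was at 660 CPM in the former and 516 CPM in the latter.

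Within the 570 nuclei, several of the genes described below differed along with the number of UMIs of Dab1, a gene of the gate. Nuclei with 3 to 4, 5 to 9, 10 to 19 and at least 20 Dab1 UMIs numbered 131, 192, 165 and 82. In that order Prox1 stood at 234, 339, 483 and 679 CPM and Nfia, a transcription factor of the nuclear factor I family, at 308, 499.5, 843 and 1203 CPM. Gjd2 stood at 53.4, 75.1, 91.1 and 123 CPM and Drd2, the D2 dopamine receptor, at 28.8, 72.5, 109 and 152 CPM. All 4 genes were higher in each step than in the one before, over nuclei pooled from all libraries. Dner, described below, also rose, with 164, 269, 389 and 462 CPM. Libraries entered the steps unevenly: replicate 3 at 18 months gave 39 nuclei of the lowest step and 2 of the highest, and replicate 3 at 3 months gave 14 and 0. Calb2, an AII marker described below, went the other way and fell at each step, with 123, 98.4, 77.4 and 67.3 CPM. Ebf3 ran the other way in the deeper steps, with 210, 236, 84.3 and 17.6 CPM. The median depth was 1463, 1705, 2334 and 3565 UMIs in the 4 steps, and its part in these differences was not tested.

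The label was checked against 5 AII-associated genes that the gate did not use, and 4 of them were higher in AII-like nuclei than in the remaining nuclei of the same library, in 6 of 6 libraries. Gjd2 had 88.0, 91.0 and 85.7 CPM in AII-like nuclei at 18 months and 83.5, 101 and 73.9 CPM at 3 months. All other nuclei had 18.5, 24.7 and 39.9 CPM of Gjd2 at 18 months and 24.0, 23.1 and 22.2 CPM at 3 months. The lowest AII-like library thus lay above the highest value of all other nuclei, and the means of 87.2 ± 8.91 and 25.4 ± 7.42 CPM (SD, n = 6 each) differed 3.44-fold. Prox1 averaged 425 ± 54.8 CPM in AII-like nuclei and 109 ± 37.5 CPM in all other nuclei, and Nfia 685 ± 135 and 178 ± 84.5 CPM (SD, n = 6 each). Dner, a Notch-like membrane protein, was at 315 ± 52.2 CPM in AII-like nuclei and 178 ± 23.4 CPM in all other nuclei.

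The fifth gene went against the label. Calb2, which encodes calretinin, a calcium-binding protein used as an AII marker in several mammals, had 51.9, 109 and 105 CPM in AII-like nuclei at 18 months and 54.3, 111 and 234 CPM at 3 months. All other nuclei had 124, 204 and 169 CPM of Calb2 at 18 months and 89.8, 144 and 231 CPM at 3 months. AII-like nuclei were above the rest in 1 of 6 libraries. Tfap2b, a transcription factor of amacrine cells, was at 454 ± 55.3 CPM in AII-like nuclei and 141 ± 39.6 CPM in all other nuclei. Slc6a5, the glycine transporter GlyT2, was at 87.2 ± 25.8 CPM in AII-like nuclei and 13.5 ± 3.71 CPM in all other nuclei (SD, n = 6 each).

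Per nucleus, detection was sparse. Gjd2 had a UMI in 106 of 570 AII-like nuclei (18.6%) and Prox1 in 312 (54.7%). At least 1 of these genes was seen in 350 nuclei and both in 68. To compare classes at one depth, nuclei were thinned to 1000 UMIs each, which left out 29 AII-like, 7 GABAergic amacrine and 18195 other nuclei. After thinning, 7.95% of AII-like nuclei held a Gjd2 UMI, against 2.22% of GABAergic and 2.77% of all other nuclei. The shares for Prox1 were 36.2% of AII-like, 4.16% of GABAergic and 9.73% of all other nuclei. Those for Drd2 were 9.24%, 0.831% and 1.40% in the same order of classes.

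**Figure D1:**
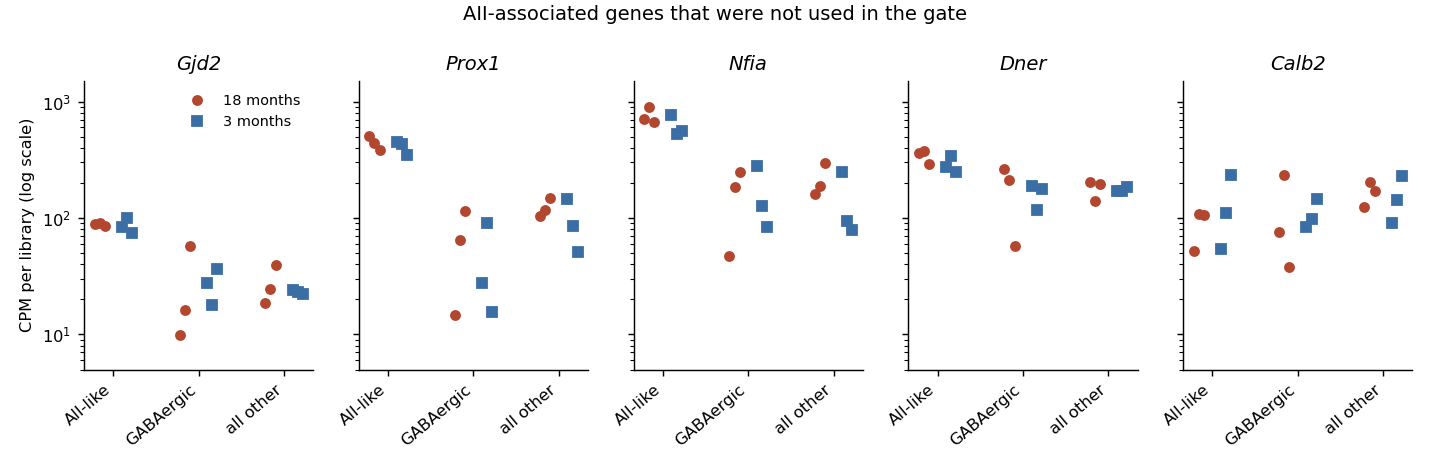
CPM per library (log scale) of 5 AII-associated genes that the gate did not use, in AII-like, GABAergic amacrine and all other nuclei; each point is 1 library, circles at 18 months and squares at 3 months. Gjd2, Prox1, Nfia and Dner are above all other nuclei of the same library in 6 of 6 libraries, and Calb2 in 1 of 6.

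The gate did not hold a single pattern of expression. A UMI of Ebf3, which was listed as a marker of other glycinergic amacrine cells, was found in 96 of the 570 nuclei, and the 474 nuclei without one differed from them in many genes. This division was chosen after the values were seen, so it is given as a description with no test. By library, Ebf3 was seen in 25.7%, 8.55% and 8.05% of AII-like nuclei at 18 months and in 22.7%, 21.2% and 12.9% at 3 months. The 2 libraries of the older Cell Ranger release were the highest of their age. The median depth was 2212 UMIs in nuclei with Ebf3 and 2049 in nuclei without.

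Genes of the AII label were low in the nuclei with Ebf3. Gjd2 had 0 CPM at 18 months in all 3 libraries and 48.0, 0 and 0 CPM at 3 months in nuclei with Ebf3. In nuclei without Ebf3 it had 123, 99.9 and 93.7 CPM at 18 months and 96.0, 121 and 84.3 CPM at 3 months. The groups did not overlap, and they rest on 3 UMIs in nuclei with Ebf3 and 121 UMIs in nuclei without. Nuclei with Ebf3 numbered 38, 13 and 7 at 18 months and 27, 7 and 4 at 3 months. The smallest of these groups held 12994, 16278 and 10056 UMIs of all genes, so 0 CPM there is imprecise. Drd2 was at 15.2 CPM over the summed nuclei with Ebf3 and 114 CPM over those without. Nfia stood at 197 CPM with Ebf3 and 870 CPM without, Dner at 178 and 372 CPM and Tfap2b at 125 and 554 CPM. Csmd3, a large membrane protein with CUB and sushi domains, was at 402 CPM with Ebf3 and 2014 CPM without. Nrg1, the growth factor neuregulin 1, was at 2023 CPM with Ebf3 and 8919 CPM without. Replicate 3 at 18 months, where 7 nuclei held Ebf3, differed from these sums. There Tfap2b was at 462 CPM with Ebf3 and 346 CPM without, Nfia at 539 and 678 CPM and Nrg1 at 6311 and 6691 CPM. Dner was at 462 CPM with Ebf3 and 274 CPM without in that library.

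A second set of genes was high in the nuclei with Ebf3. Esr1, the oestrogen receptor alpha, had 449, 227 and 0 CPM at 18 months and 288, 430.0 and 597 CPM at 3 months in nuclei with Ebf3. Without Ebf3 it had 15.8, 16.6 and 21.6 CPM at 18 months and 67.8, 12.1 and 0 CPM at 3 months. Nuclei with Ebf3 were higher in all libraries except replicate 3 at 18 months, where they numbered 7. Thsd4, an extracellular protein with thrombospondin repeats, was at 1087 CPM with Ebf3 and 112 CPM without. Ror1, a receptor of Wnt5a, was at 345 CPM with Ebf3 and 17.4 CPM without. Ebf1, a relative of Ebf3, stood at 834 CPM with Ebf3 and 213 CPM without, and Nfib at 364 and 78.5 CPM.

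Other genes were close in both. Slc6a9 was at 633 CPM with Ebf3 and 682 CPM without, Prox1 at 398 and 460 CPM and Calb2 at 75.8 and 91.6 CPM. Spink13 was at 371 CPM with Ebf3 and 461 CPM without, and Gabrg3 at 1633 and 1833 CPM. Dab1, a gene of the gate, was at 2895 CPM with Ebf3 and 4807 CPM without. A nucleus with no Ebf3 UMI may still have expressed the gene at this depth, so the 474 nuclei are not a pure set. The tests of genes below were repeated without the 96 nuclei, and named genes whose call this changed are given with both values. Shares of nuclei were not recomputed that way.

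**Figure D2:**
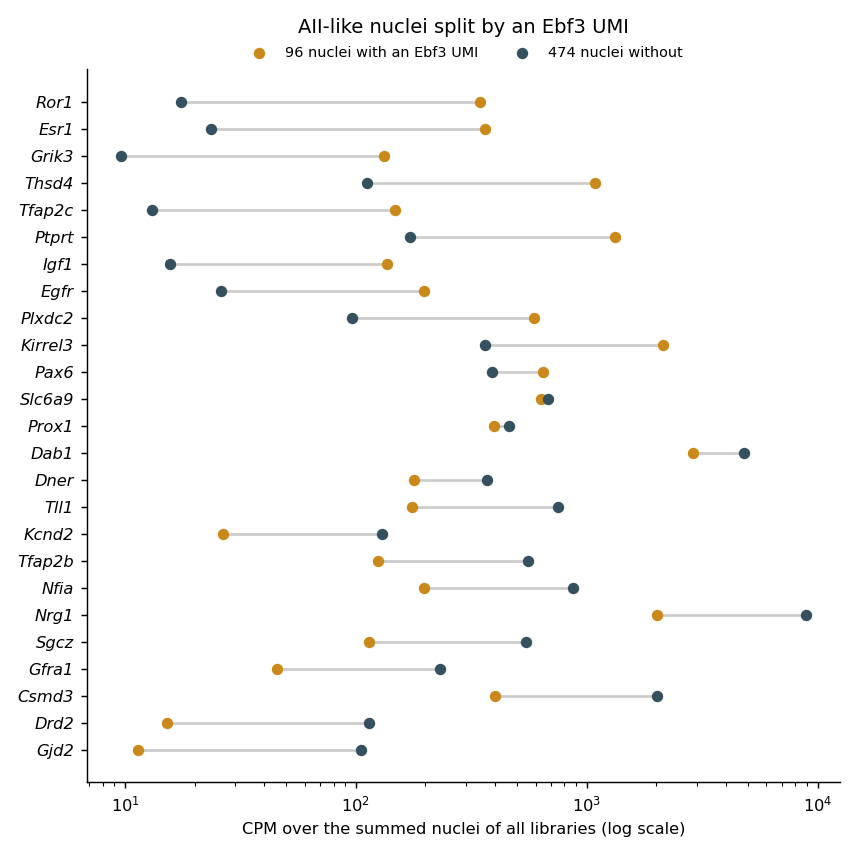
CPM over all libraries (log scale) of selected genes in the 96 AII-like nuclei with an Ebf3 UMI and the 474 without. Gjd2, Drd2 and Csmd3 lie to the left in nuclei with Ebf3, Ror1, Esr1 and Thsd4 to the right, and Prox1 and Slc6a9 are close in both.

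AII-like nuclei made up 2.51%, 0.940% and 0.602% of the nuclei kept at 18 months and 2.27%, 0.505% and 0.448% at 3 months. Replicate 1 was the highest at each age and the ages overlapped. The means of 1.35% ± 1.02 at 18 months and 1.07% ± 1.03 at 3 months (SD, n = 3 each) did not pass a two-sided exact permutation test (p = 0.5; the smallest p this design allows is 0.1). The difference of 0.277 percentage points was 0.244 within Cell Ranger 7.1.0 and 0.294 within 7.2.0, and it fell below 0 when replicate 1 at 18 months (-0.303), replicate 2 at 3 months (-0.00681) or replicate 3 at 3 months (-0.0354) was left out. Among AII-like and GABAergic amacrine nuclei together, AII-like nuclei were 66.5% ± 12.9 at 18 months and 52.4% ± 16.0 at 3 months (exact permutation p = 0.4). This difference was -6.84 points within release 7.1.0 and 24.6 points within 7.2.0.

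The AII-like nuclei were then compared with 368 GABAergic amacrine nuclei of the same libraries (94, 114 and 20 at 18 months and 56, 29 and 55 at 3 months). These had at least 3 UMIs of Gad1 and Gad2 together, no Slc6a9 UMI, no limit on Dab1, and the same limits on Slc17a8, the 9 other genes, genes detected and mitochondrial share. Their median depth was 3600.5, 3558 and 2328 UMIs at 18 months and 2419, 3751 and 3127 at 3 months, above the AII-like median in each library. Starburst amacrine cells were not left out. Chat, their marker, was at 55.1 ± 30.9 CPM in GABAergic and 8.07 ± 18.7 CPM in AII-like nuclei (SD, n = 6 each). The part of depth and of starburst cells in the comparison was not tested. Counts were summed per class and library and tested with edgeR's quasi-likelihood test with the library as a block and Benjamini-Hochberg adjustment over 3680 genes outside the gates. At an adjusted p of at most 0.05, 355 genes were higher in AII-like nuclei (9.65% of those tested) and 456 were lower (12.4%), 22.0% in all. Of the 811 genes called, 780 could be tested without the 96 nuclei with Ebf3, and 721 kept their call there. Replicate 3 at 18 months had only 20 GABAergic nuclei. In that library they also had the highest GABAergic level of several AII genes, such as 57.5 CPM of Drd2, against 0 to 6.9 CPM in the other 5. Of the 14 rod markers, 11 were higher in AII-like nuclei, with a median log2 difference of 0.52. Their summed level was 7463 to 16766 CPM in AII-like and 5496 to 11869 CPM in GABAergic nuclei. The part of rod RNA in the comparison was not tested.

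Among called genes with at least 50 CPM in the higher class and one direction in 6 of 6 libraries, the 12 with the largest positive differences included transcription factors, secreted inhibitors and receptors. St18, a zinc finger transcription factor, had 122, 159 and 79.1 CPM in AII-like nuclei at 18 months and 125, 141 and 135 CPM at 3 months. GABAergic nuclei had 0, 4.6 and 38.3 CPM of St18 at 18 months and 0, 0 and 5.2 CPM at 3 months. The classes did not overlap, and the log2 difference was 4.96 ± 0.44 (SE; edgeR adjusted p = 3.13e-07). Spink13 and Spink10, inhibitors of serine proteases of the Kazal type, were 4.47 ± 0.43 and 3.93 ± 0.25 higher on the log2 scale. These 2 genes overlap on opposite strands, so their counts are uncertain. The same holds for Ccdc24 (3.77), which overlaps Slc6a9, a gene of the gate. Pcsk6, a proprotein convertase, differed by 3.69 ± 0.30, Lamp5, a lysosome-associated membrane protein of neurons, by 3.55 ± 0.30, and Shisa6, an auxiliary subunit of AMPA receptors, by 3.23 ± 0.24. Lgr5, a receptor for R-spondins, was at 370.3 CPM in AII-like and 49.3 CPM in GABAergic nuclei (log2 difference 3.15 ± 0.30). Tmem132a stood at 3.27 and Ccsap, a protein of centrioles and cilia, at 3.04. Drd2 (3.65) and Prox1 (3.30), described below, complete the 12 genes.

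The 12 genes with the largest negative differences were of several kinds. Robo1, a receptor for the guidance cue Slit, had 316, 258 and 659 CPM in AII-like nuclei at 18 months and 146, 131 and 86.2 CPM at 3 months. GABAergic nuclei had 2479, 2714 and 2031 CPM of Robo1 at 18 months and 1549, 2688 and 1501 CPM at 3 months. No AII-like library reached the lowest GABAergic one, and the log2 difference was -3.19 ± 0.25 (edgeR adjusted p = 1.03e-07). Pde11a, a phosphodiesterase of cAMP and cGMP, was lower by the most (-4.10 ± 0.35), followed by Stxbp6, which binds syntaxin (-4.05 ± 0.35), and Epb41l4a, a band 4.1 protein (-3.97 ± 0.31). Dach2, a transcription factor, stood at -3.84, Iqgap2, a scaffold protein, at -3.62, and Csgalnact1, an enzyme of chondroitin sulphate synthesis, at -3.58. Ppfibp1, a liprin, stood at -3.37, Nav3, a neuron navigator, at -3.31, Kcnip1, a subunit of Kv4 potassium channels, at -3.23, and Il1rapl2, a synaptic adhesion protein, at -3.21. Sox2ot (-3.29) is a non-coding RNA that overlaps Sox2, so its counts are uncertain.

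**Figure D3:**
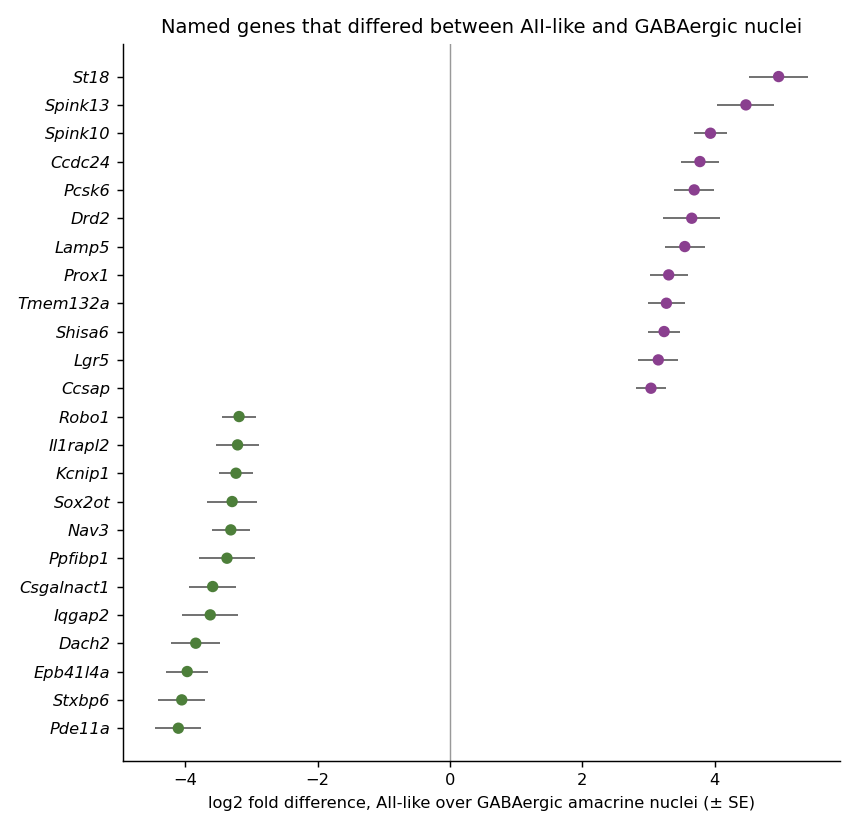
Log2 difference of AII-like over GABAergic amacrine nuclei (x axis, bars ± SE) for the 12 genes named in each direction, from 6 libraries per class. St18 is highest at 4.96 and Pde11a lowest at -4.10.

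Of the AII genes, 4 of 5 tested were higher in AII-like than in GABAergic nuclei, against 9.65% of all genes tested. Their median log2 difference was 2.06, against 0.03 over all genes tested. Prox1 differed by 3.30 ± 0.29, Nfia by 2.31 ± 0.25, Gjd2 by 2.06 ± 0.31 and Dner by 0.77 ± 0.18. Calb2 did not pass (-0.40 ± 0.25; edgeR adjusted p = 0.295). Among 9 tested transcription factors and RNA-binding regulators of amacrine cells, 4 were higher and 2 lower, against 9.65% higher and 12.4% lower over all genes tested. Ebf1 (2.32), Nfib (2.09), Tcf4 (1.88) and Tfap2b (0.49) were higher, and Meis2 (-2.22) and Elavl4 (-1.20) were lower. Ebf1 stood at 1.75 without the nuclei with Ebf3 and still passed, while Nfib then fell below the filter on low counts. Pax6, a regulator that amacrine cells share, was at 408 ± 102 CPM in AII-like and 378 ± 129 CPM in GABAergic nuclei (SD, n = 6 each; log2 difference 0.12 ± 0.14) and did not pass.

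Of 10 tested gap junction genes, Gjd2 was higher, Camk2a, a subunit of the kinase CaMKII, was lower (-2.42 ± 0.35) and 8 did not pass, a share of calls near the 22.0% over all genes tested. Tjp1, the scaffold ZO-1 that binds connexin 36, differed by 0.16 ± 0.13, and Camk2d, another CaMKII subunit, by -0.05 ± 0.13. The 4 receptors for modulators that could be tested all differed. Drd2 had 94.7, 114 and 59.3 CPM in AII-like nuclei at 18 months and 117, 60.6 and 61.6 CPM at 3 months. GABAergic nuclei had 2.5, 6.9 and 57.5 CPM of Drd2 at 18 months and 6.9, 0 and 5.2 CPM at 3 months. The AII-like libraries all lay above the GABAergic ones, narrowly so for replicate 3 at 18 months, and the log2 difference was 3.65 ± 0.43 (edgeR adjusted p = 5.19e-06). Drd4, the D4 dopamine receptor, was higher by 0.69 ± 0.21. The muscarinic receptors Chrm3 (-2.53 ± 0.20) and Chrm2 (-1.62 ± 0.27) were lower, and Chrm2 fell below the filter on low counts without the nuclei with Ebf3.

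Genes of receptors for glutamate, the transmitter of bipolar cells, were called lower more often than higher. Of 20 tested genes of ionotropic receptors and their scaffolds, 2 were higher, 9 lower and 9 did not pass, against 9.65% higher and 12.4% lower over all genes tested. The share of higher genes was thus near that background and the share of lower genes above it. The AMPA receptor subunit Gria3 was higher (0.39 ± 0.13), as was the scaffold Shank2 (1.03 ± 0.20). Gria1 (-0.88 ± 0.19) and Gria2 (-0.50 ± 0.15) were lower, and Gria4 stood at -0.07 ± 0.11. The NMDA receptor subunits Grin2a (-2.59 ± 0.24) and Grin2b (-1.31 ± 0.19) were lower, and Grin1 was not called (0.33 ± 0.16). Grid1 (-0.70), Dlg2 (-0.99), Cacng2 (-0.62) and Cacng4 (-0.61) were also lower, and Cacng2 stood at -0.52 with no call without the nuclei with Ebf3 (edgeR adjusted p = 0.0733). All 5 tested metabotropic receptors were lower. Grm7 had 239, 205 and 752 CPM in AII-like nuclei at 18 months and 142, 323 and 209 CPM at 3 months. GABAergic nuclei had 1016, 1703 and 1245 CPM of Grm7 at 18 months and 1257, 1331 and 964 CPM at 3 months, with no overlap (log2 difference -2.24 ± 0.24; edgeR adjusted p = 2.26e-06). Grm3 (-2.53), Grm5 (-1.30) and Grm8 (-0.90) were among the others.

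Among receptors for inhibitory transmitters, 1 of 14 tested genes was higher and 4 were lower, so the share of higher genes was near the 9.65% over all genes, against 12.4% lower over all genes. Gabrg3, the gamma 3 subunit of GABA-A receptors, had 1601, 2379 and 1615 CPM in AII-like nuclei at 18 months and 1524, 1655 and 1329.9 CPM at 3 months. GABAergic nuclei had 212, 371 and 670.5 CPM of Gabrg3 at 18 months and 340.4, 180 and 172 CPM at 3 months. The classes did not overlap, and the log2 difference was 2.51 ± 0.20 (edgeR adjusted p = 9.30e-08). Gabrb1 (-2.06 ± 0.19), Gabra2 (-1.85 ± 0.27) and Gabbr2 (-1.19 ± 0.27) were among the lower genes. The glycine receptor genes Glra2 (-0.18 ± 0.19), Glra3 (0.27 ± 0.23) and Glrb (-0.40 ± 0.22) and their anchor Gphn (-0.22 ± 0.13) did not pass. Slc32a1, which loads both glycine and GABA into vesicles, did not pass either (-0.30 ± 0.18), and the amino acid transporter Slc38a1 was lower (-0.60 ± 0.19). Slc38a2 did not pass (-0.41 ± 0.22).

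Channel genes were called in both directions, and the counts of this and the next groups stand against 9.65% higher and 12.4% lower over all genes tested. Of 11 tested sodium channel genes, 2 were higher and 6 lower, with a median log2 difference of -0.79. Scn1a, the Nav1.1 subunit, had 456, 748 and 475 CPM in AII-like nuclei at 18 months and 484, 626 and 579 CPM at 3 months. GABAergic nuclei had 276, 237 and 441 CPM of Scn1a at 18 months and 188, 171 and 235 CPM at 3 months. The highest GABAergic library stayed just under the lowest AII-like one, and the log2 difference was 1.16 ± 0.19 (edgeR adjusted p = 0.000128). Scn9a was higher by 0.75 ± 0.19. Scn3a (-1.91 ± 0.25), the channel-binding Fgf14 (-2.31 ± 0.24), Fgf12 (-1.41 ± 0.20) and Fgf13 (-0.81 ± 0.17), the anchor Ank2 (-1.18 ± 0.13) and the leak channel Nalcn (-0.79 ± 0.14) were lower. Scn2a (-0.41 ± 0.17), Scn8a (-0.04 ± 0.17) and Ank3 (0.07 ± 0.12) did not pass.

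Of 23 tested potassium and HCN channel genes, 6 were higher and 8 lower. Kcnh1 (2.93), the channel-binding Kcnip3 (1.61), Kcnma1, the pore of BK channels (1.60), and Kcnh7 (1.30) led the higher genes, while Kcnip1 (-3.23), Kcnh5 (-2.50), Kcnc2 (-1.90) and Kcnd2, the pore of Kv4.2 (-1.84), led the lower ones. Of 23 tested genes of calcium channels and calcium handling, 4 were higher and 10 lower. The auxiliary subunits Cacna2d3 (2.82), Cacna2d4 (1.23) and Cacnb4 (1.17) and the inositol trisphosphate receptor Itpr1 (0.79) were higher. Cacna2d1 (-2.87) and the pores Cacna1e (-1.89) and Cacna1a (-1.88) were lower, as was Cacna2d2 (-1.86). Cacna1d, an L-type pore, stood at 0.10 ± 0.14.

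Of 29 tested genes of transmitter release, 5 were higher, 8 lower and 16 did not pass, with a median of -0.25. The 5 higher genes were Sv2b, a vesicle glycoprotein (1.52 ± 0.17), Cplx3 (1.22 ± 0.21) and Cplx4 (0.64 ± 0.16), the complexins of retinal ribbon synapses, Erc2, an active zone protein (1.09 ± 0.14), and Stx3, a syntaxin of ribbon synapses (0.86 ± 0.16). Photoreceptors and bipolar cells also express these genes, and RNA of rods was present in the AII-like nuclei, as given above. Its part in these differences was not tested. Cplx3 had 124, 185 and 72.5 CPM in AII-like nuclei at 18 months and 167, 121 and 98.5 CPM at 3 months. GABAergic nuclei had 29.6, 83.0 and 38.3 CPM of Cplx3 at 18 months and 90.3, 45.0 and 67.8 CPM at 3 months. AII-like nuclei were higher in 6 of 6 libraries, although the classes overlapped across libraries. Syt7 (-2.43), Rimbp2 (-1.93), Rims1 (-1.81) and Syn3 (-1.05) led the lower genes, and Snap25 was lower by 0.61 on the log2 scale. Bsn (-0.61) and Syt11 (-0.56) lost their calls without the nuclei with Ebf3, at -0.52 and -0.47 (edgeR adjusted p = 0.0633 and 0.0645).

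Adhesion genes were lower in the majority. Of 45 tested, 9 were higher, 25 lower and 11 did not pass, and the median was -0.61. Csmd3 (2.70), Dscaml1 (2.24), Cntn6 (1.68) and Cntn4 (1.27) led the higher genes, and Il1rapl2 (-3.21), Cntn3 (-2.60), Tenm1 (-2.49) and Il1rapl1 (-2.40) the lower ones. Dscaml1 and its relative Dscam (-1.76), both adhesion proteins that space amacrine cells in mice, thus differed in opposite directions. Ptprt was higher (0.85 ± 0.19) with all nuclei and stood at -0.23 without those with Ebf3, with no call (edgeR adjusted p = 0.642). In the reelin pathway, to which Dab1 belongs, 10 of 11 tested genes did not pass. Reln itself, the extracellular ligand, was lower (-2.65 ± 0.25), while its receptors Lrp8 (0.52 ± 0.29) and Vldlr (-0.38 ± 0.19) did not pass.

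**Figure D4:**
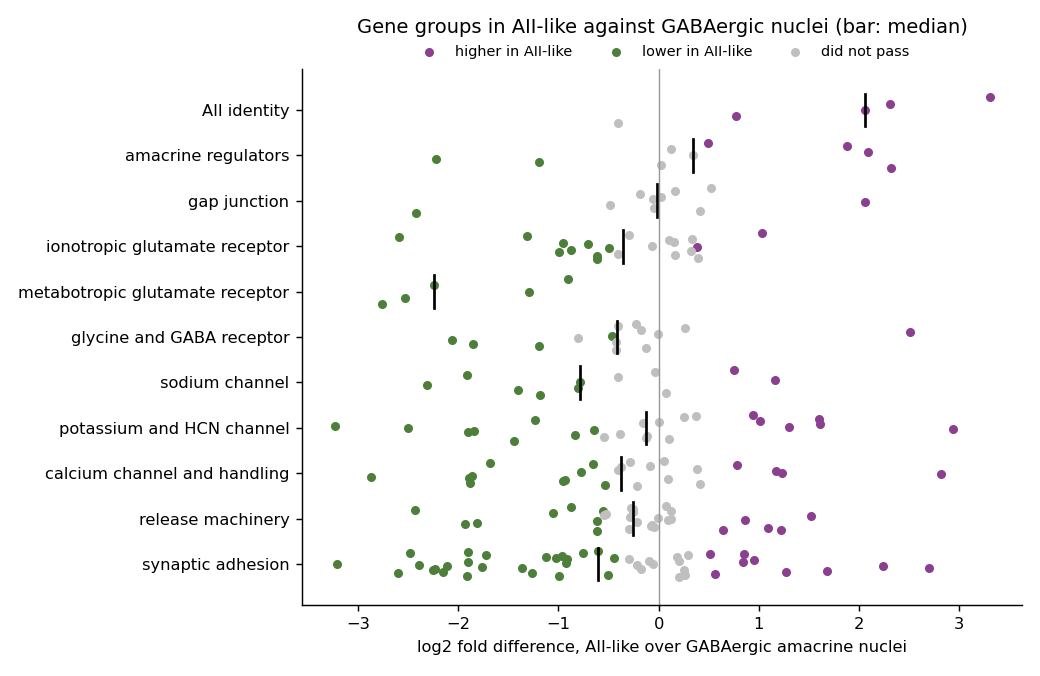
Log2 difference of AII-like over GABAergic amacrine nuclei for each tested gene of 11 groups (points; colour shows higher, lower or not passed at an adjusted p of 0.05) with the median of the group as a black bar. The AII genes have a median of 2.06, the metabotropic glutamate receptors of -2.24 and the sodium channel genes of -0.79.

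A smaller comparison set the AII-like nuclei beside 78 nuclei with at least 2 UMIs of Slc6a9 and none of Dab1. They are called other glycinergic by this rule alone, and their rod RNA is given below. Of 1834 genes tested in the same way, 230 were higher in AII-like nuclei (12.5%) and 187 lower (10.2%), 22.7% in all. Prox1 (3.13 ± 0.44) and Nfia (2.14 ± 0.39) were higher, and Dner (1.03 ± 0.40) did not pass (edgeR adjusted p = 0.0607). Without the nuclei with Ebf3 it did, at 1.18 (edgeR adjusted p = 0.0335). Gjd2 had too few counts to be tested. Nrg1 was at 7271 CPM in AII-like and 1161 CPM in other glycinergic nuclei (log2 difference 3.54 ± 0.41). Tll1, a metalloprotease, differed by 4.38 ± 0.56, Galnt18, a glycosyltransferase, by 4.07 ± 0.51, Cdh12, a cadherin, by 3.61 ± 0.46 and Kcnj6, a GIRK channel, by 3.53 ± 0.51. Spink13 had 627 UMIs in AII-like and 0 UMIs in other glycinergic nuclei, so no fold is given. Gabrg3 (2.88 ± 0.40), Scn1a (2.40 ± 0.41), Kcnma1 (3.07 ± 0.37) and the AMPA receptor genes Gria3 (2.50 ± 0.40), Gria4 (1.33 ± 0.29) and Gria2 (1.13 ± 0.31) were higher in AII-like nuclei.

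Rod RNA moved with this comparison. Of the 14 rod markers, 13 were lower in AII-like nuclei, with a median of -0.96. Their summed level was 7463 to 16766 CPM in AII-like nuclei. Other glycinergic nuclei had 17870, 24896 and 12401 CPM at 18 months and 28885, 26242 and 39029 CPM at 3 months. All nuclei outside the AII gate had 8241, 18399.5 and 12613 CPM at 18 months and 12347, 29429 and 19651.5 CPM at 3 months. Rod RNA in the other glycinergic class was thus above that level in replicates 1 and 2 at 18 months and replicates 1 and 3 at 3 months. In replicate 3 at 18 months and replicate 2 at 3 months the class was below it. Its differences from AII-like nuclei cannot be read as differences between amacrine types alone. The genes with the largest negative differences included Esrrb (-1.78), Mak (-1.52), Samd11 (-1.52) and Cabp4 (-1.53), all known from photoreceptors. The part of rod RNA in the result was not tested. Without replicate 1 at 18 months, which held 23 of the 78 nuclei, 177 genes were called in place of 417.

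Between the ages, no gene passed in the AII-like nuclei. Of 4271 genes tested with edgeR's quasi-likelihood test, 0 were called (0.0%), with 109 at an unadjusted p under 0.05 and a smallest adjusted p of 0.9999 after Benjamini-Hochberg adjustment. DESeq2 called 0, with 85 under 0.05. With the Cell Ranger release as a term, edgeR called 0, with 301 under 0.05 and a smallest adjusted p of 0.0969. By simple order of the libraries, 234 genes (5.48%) were higher and 123 (2.88%) lower at 18 months with no overlap between the ages. The same test called 0 of 3677 genes in GABAergic nuclei (120 at an unadjusted p under 0.05). A test of whether the age difference itself differed between AII-like and GABAergic nuclei called 0 of 4862 genes (185 at an unadjusted p under 0.05; DESeq2 0, with 48 under 0.05). The same test against other glycinergic nuclei called 0 of 2849 genes (82 under 0.05; DESeq2 0).

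Of the 5 AII genes, Gjd2 and Prox1 had close means at both ages. Gjd2 averaged 88.2 ± 2.66 CPM at 18 months and 86.1 ± 13.7 CPM at 3 months (SD, n = 3 each), with a log2 difference of 0.00 ± 0.29 (SE). Prox1 averaged 441 ± 60.4 CPM at 18 months and 409 ± 55.5 CPM at 3 months, a log2 difference of 0.06 ± 0.26. Nfia differed by 0.26 ± 0.27 and Dner by 0.22 ± 0.27, with overlapping libraries. Calb2 lay the other way, with 88.7 ± 31.9 CPM at 18 months and 133 ± 91.9 CPM at 3 months, overlapping libraries and a log2 difference of -0.52 ± 0.53. None of the 10 tested gap junction genes, 21 ionotropic glutamate receptor genes, 15 glycine and GABA receptor genes, 11 sodium channel genes and 7 glycine handling genes was called. Their median log2 differences were 0.15, 0.16, 0.32, 0.05 and -0.14 in that order, against 0.00 over all genes. In these groups 3 genes had no overlap between the ages, a smaller share than the 5.48% higher and 2.88% lower over all genes. They were Camk2d (0.35 ± 0.25), Dlg2 (0.47 ± 0.29) and Scn2a (-0.60 ± 0.30). Scn2a had 156, 167 and 105 CPM at 18 months, against 180, 242 and 234 CPM at 3 months. At this depth a log2 difference near 1 with a like SE was not called, as the values of Gnat1 below show.

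4 genes that passed only in fits other than the one with age alone were Robo1, Galntl6, Cntn5 and Dpp10. With a block for replicate number edgeR called 12 of 4271 genes (0.281%), these 4 among them, and the numbers are not known to pair the libraries. Robo1, with the values given above, had a log2 difference of 1.63 ± 0.40 with no overlap. Galntl6, a glycosyltransferase, had 361, 334 and 1140.5 CPM at 18 months, against 200.4, 111 and 123 CPM at 3 months (1.93 ± 0.49). Cntn5, a contactin, had 219, 154 and 791 CPM at 18 months, against 58.4, 131 and 135 CPM at 3 months (1.83 ± 0.63). Dpp10, an auxiliary subunit of Kv4 channels, had 126, 136 and 468 CPM at 18 months, against 4.17, 111 and 24.6 CPM at 3 months (2.52 ± 0.84). Replicate 3 at 18 months, with the fewest UMIs per nucleus, was the highest library for all 4. Without it the differences were 1.18, 1.18, 0.86 and 1.74 in the same order. The difference of Dpp10 was also 1.62 without replicate 1 and 4.48 without replicate 2 at 3 months. All other nuclei of that library had 991 CPM of Robo1 and 1766 CPM of Galntl6, more than the AII-like nuclei of any library. The part of RNA from other cells in these values was not tested. In GABAergic nuclei the age differences were 0.29 for Robo1, -0.71 for Galntl6, -0.09 for Cntn5 and 0.40 for Dpp10.

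Rod and mitochondrial transcripts stood lower in AII-like nuclei at 18 months, as they did in GABAergic nuclei. Gnat1, the alpha subunit of rod transducin, had 492, 432 and 527 CPM at 18 months, against 1160.6, 888 and 862 CPM at 3 months, with no overlap (log2 difference -1.06 ± 0.26, no call). In GABAergic nuclei it differed by -0.85. mt-Cytb, a subunit of respiratory complex III, had 839, 779 and 943 CPM at 18 months, against 1649, 1958 and 1576 CPM at 3 months (-1.07 ± 0.25), and differed by -1.33 in GABAergic nuclei. Nuclei were chosen by their mitochondrial share, so these genes are given as a description. The difference of mt-Cytb was -0.80 with a limit of 2% and -1.32 with no limit. The 12 tested mitochondrially encoded genes all had a negative difference, with a median of -1.06 (GABAergic -1.15). Only 2 of them, mt-Cytb included, had no overlap between the ages. The summed level of the 13 listed genes overlapped, with 11354, 5425 and 7542 CPM at 18 months and 24590, 13506 and 9900.5 CPM at 3 months. The 76 tested genes of the cytosolic ribosome also all had a negative difference, with a median of -0.51 (GABAergic -0.49). Only 5 of them had no overlap between the ages. Their list summed to 5912, 15108 and 12380 CPM at 18 months and 9644, 21359 and 17954 CPM at 3 months. Replicate 1, counted with Cell Ranger 7.1.0, was the lowest at each age. The part of the release was not tested. None of the ribosomal genes was called. The median mitochondrial share of UMIs per AII-like nucleus was 0.918%, 0.421% and 0.804% at 18 months, against 2.50%, 1.44% and 0.830% at 3 months, so the ages overlapped in replicate 3 at 3 months.

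**Figure D5:**
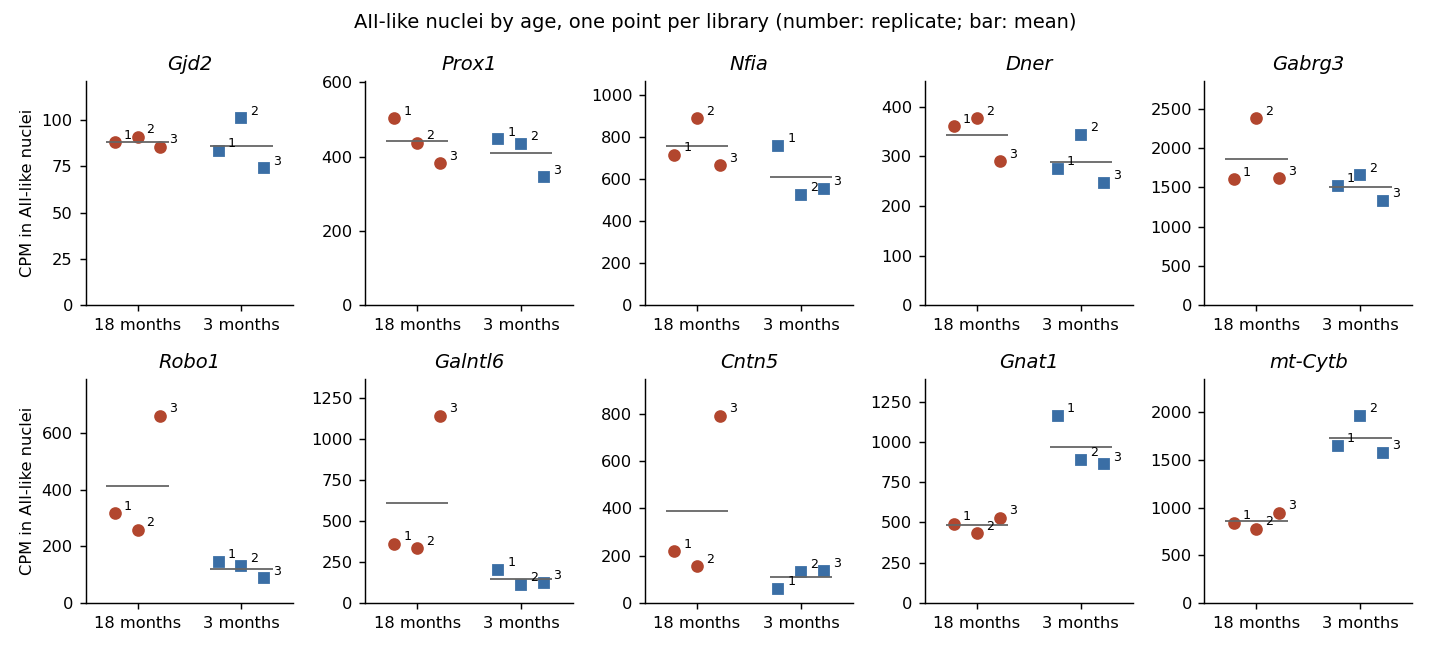
CPM in AII-like nuclei at 18 months (circles) and 3 months (squares) for 10 genes, with 1 point per library labelled by replicate and the mean as a bar. Gjd2, Prox1, Nfia, Dner and Gabrg3 overlap between the ages, replicate 3 is the highest 18-month library for Robo1, Galntl6 and Cntn5, and Gnat1 and mt-Cytb are lower in every 18-month library; no gene passed the test of age.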

How the data were processed

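The authors deposited raw UMI counts per gene and barcode for 6 libraries. Per the file headers, they came from Cell Ranger 7.1.0 (replicate 1 of both ages) or 7.2.0, and per the submitters' processing notes the build was mm10 and Seurat was used. The authors' clusters were not used here. Barcodes were filtered and gated as the report states, without doublet removal. Doublets were weighed by an alternative without the highest Scrublet scores (scanpy 1.11.5), at 0.8% per 1000 nuclei.

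Counts were summed per library and class and tested in R 4.3.3 with the quasi-likelihood test of edgeR 4.0.16 (TMM, filterByExpr, adjusted p at most 0.05). Class comparisons had the library as a block and left out genes of the gates. DESeq2 1.42.0 was an alternative. The scripts were tested on simulated data. CPM use the summed UMIs of a class, and SE is the log2 difference over the root of F. Shares went into an exact permutation test, two-sided.

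The gate for other glycinergic nuclei was to have at least 3 Slc6a9 UMIs, which only 5 nuclei met, so at least 2 was used and the GABAergic comparison was added. The members, gene lists and rules were chosen with earlier results of these data known. Genes named against GABAergic nuclei were the 12 largest differences per direction with at least 50 CPM in the higher class and one direction in 6 libraries. Gate genes, unnamed gene models, sex-linked transcripts and mitochondrially encoded genes were left out. List members were added, and genes of the Ebf3 division and Cplx3, Grm7, Gabrg3 and Gnat1 were chosen after their values were seen. Coordinates and overlaps are from GENCODE M21 (mm10), where 32235 of 32285 identifiers were found. The counting of strand is not given in the sources used here. Some list members and their results are not reported here.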

Additional observations from a re-analysis of the deposited data

How the results depend on the processing

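Against GABAergic nuclei, the 12 genes of largest difference per direction and Gjd2, Nfia and Dner (27 in all) kept direction and call in the 349 alternatives run (13 per gene, fewer for Drd2). Calls of other list genes were compared only without nuclei with Ebf3, with the changes of named genes given above. The total of 811 calls was 485 without the library block and 1302 without the filter on low counts, and 590.0 to 1034 with 1 library left out. Against other glycinergic nuclei, leaving out 1 library gave 177 to 461 calls, and without the filter on low counts 560 genes were higher and 16 lower, against 230 and 187. The test of the age difference between classes called 0 to 1 genes with 1 library left out for each comparison, and 2 against GABAergic nuclei without the filter. By age, 4 genes were called without the filter, all higher at 18 months, and 20 (4 higher, 16 lower of which 8 mitochondrially encoded; 0.349%) with the release term and without replicate 3 at 18 months, on 2 residual degrees of freedom. The causes were not tested. The last of these fits, and those without nuclei with Ebf3, were chosen after seeing the data.

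Replicate numbers were taken as names only. Deviations of same-numbered AII-like sums correlated at 0.605, 0.1995 and 0.0956, and replicate 2 at 18 months correlated better with replicate 3 at 3 months (0.25). With a replicate block, 12 genes (0.281%) were called by age: Robo1, Galntl6, Cntn5 and Dpp10 higher, and 8 rod and mitochondrial genes lower. The age difference of Gjd2, near 0, was -0.0081 with the replicate block, -0.083 and -0.10 at Dab1 limits of 2 and 5 UMIs, -0.013 with RLE scaling, -0.028 without the mitochondrial limit, -0.13 without nuclei of high Scrublet score and -0.048 to 0.14 with 1 library left out. That of Prox1 was -0.045 to 0.17 with 1 library left out, and the share of AII-like nuclei differed by -0.303 to 0.875 points. A gate without rod UMIs left 1 nucleus and was not run, and the planned glycinergic gate could not be fitted. Precision is limited by 33 and 31 nuclei in replicates 2 and 3 at 3 months and by a median depth of 1492 UMIs in replicate 3 at 18 months.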
